A study of Mus musculus with 24 samples.

Results

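MHC class II presentation was followed through 8 genes: Cd74, H2-Aa, H2-Ab1, H2-Eb1, H2-DMa, H2-DMb1, Ciita and Cd86. They were taken by gene symbol from the deposited table, which lists 22274 genes, and all 8 were found. The mice had either a Sham operation or PEL, an electrical lesion of the pituitary stalk, which joins hypothalamus and pituitary, and some were also given growth hormone (GH). RNA from bulk tissue was sequenced in 24 libraries, 3 in each of 8 groups. The hypothalamic groups were Sham (labelled day 0), Sham_GH (day 0, with GH), PEL_3d (day 3 after the lesion), PEL_3d_GH (day 3, with GH), PEL_10d (day 10) and PEL_10d_GH (day 10, with GH). The hippocampal groups were HIP_Sham (day 0) and HIP_PEL_10d (day 10), both without GH. The animals were male C57BL/6J mice with no transgene, and the dose and schedule of GH are not given in the sources used here. No label states that the 3 samples of a group came from separate animals, so the p-values measure the spread between these samples. Because every Sham library is labelled day 0, the lesion and the time since surgery cannot be told apart in a comparison with Sham.

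Class II molecules display peptides from ingested proteins to CD4+ T cells. An alpha and a beta chain assemble in the endoplasmic reticulum around the invariant chain Cd74, which guides the complex to endosomes, where proteases cut it down and the H2-DM heterodimer exchanges the remaining fragment for a peptide. Ciita is the transactivator that switches these genes on, and Cd86 is a co-stimulatory ligand that T cells need beside the peptide. In healthy brain the pathway is low in microglia and higher in macrophages at the borders and in dendritic cells, and it is known to rise in microglia after injury.

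Totals ran from 15095267 to 17973494 counts a library. A pair of libraries went against their tissue labels. The library labelled Sham 1 had a summed level of 8 hypothalamic markers of 7.21 FPKM (fragments scaled by gene length and by library depth), against at least 764 in every other hypothalamic library, a summed hippocampal level of 242 FPKM, against at most 52.1 in the others, and a summed choroid plexus level of 14818 FPKM, against at most 27.8. The library labelled HIP_Sham 1 had 1028 FPKM of the hypothalamic markers 18.5 FPKM of the choroid plexus markers and 42.9 FPKM of the hippocampal markers, against at least 252 FPKM of the latter in the other hippocampal libraries. Whether these 2 libraries carry each other's labels was not tested, and neither was moved to another group. The study left 1 Sham sample out without its number being given in the labels. The tests below leave out Sham 1, chosen by these markers, and so rest on 2 Sham libraries, with the calls for all 3 given beside them where they differ. HIP_Sham 1 was kept in the hippocampal tests, and values without it stand beside them where they differ. The hippocampal Sham 3 sample is titled as hippocampus while its tissue field says hypothalamus, and its markers were hippocampal. In PEL_10d_GH 3, Pomc alone was at 5479 FPKM, against at most 80.2 FPKM elsewhere. Without that library the members called were 8 against Sham_GH and 0 against PEL_3d_GH, as with it, among 3445 and 1732 genes called.

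The class II chains were each several-fold higher in every lesioned hypothalamic group than in its Sham group, at day 3 and at day 10, although with all 3 Sham libraries H2-Aa and H2-Eb1 did not pass at day 10 without GH, and without Sham 2 H2-Aa was the 1 member that did. H2-DMb1 and Cd86 were also higher, although H2-DMb1 did not pass at either time without GH when all 3 Sham libraries were used. Without GH both fell between day 3 and day 10, and they were lower in all 12 alternatives, past the threshold in 9 for H2-DMb1 and in 12 for Cd86, while the chains and Cd74 did not pass the test in that comparison. With GH no member passed between the days. GH moved no member past the threshold. In the hippocampus the chains were low and no member passed the test.

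Cd74 had 8.42 and 11.99 FPKM in Sham 2 and Sham 3 and 13.2 FPKM in Sham 1. In PEL_3d it was at 35.5, 31.6 and 42.8 FPKM. In PEL_10d it was at 59.98, 31.4 and 35.2 FPKM. Every lesioned library thus lay above every Sham library, and the 2 time points overlapped, with PEL_10d 1 the highest of all. With GH, Cd74 was at 11.5, 16.0 and 6.62 FPKM in Sham_GH, at 36.6, 39.5 and 32.7 FPKM in PEL_3d_GH, and at 47.7, 39.3 and 51.7 FPKM in PEL_10d_GH.

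H2-Aa, the alpha chain of I-A, had 6.17 and 8.07 FPKM in Sham 2 and 3. It reached 27.1, 23.9 and 30.2 FPKM in PEL_3d and 38.1, 21.5 and 28.4 FPKM in PEL_10d. H2-Ab1, its beta chain partner, went from 3.17 and 4.18 FPKM in the same Sham libraries to 14.7, 13.3 and 17.9 FPKM in PEL_3d and 19.96, 12.2 and 12.005 FPKM in PEL_10d. Both chains kept their lesioned libraries above their Sham libraries, Sham 1 included, at 11.2 FPKM for H2-Aa and 4.79 FPKM for H2-Ab1. H2-Eb1, the beta chain of I-E, followed with 3.18 and 3.87 FPKM in Sham 2 and 3, 11.8 to 15.4 FPKM in PEL_3d and 9.76 to 17.7 FPKM in PEL_10d. C57BL/6 mice carry a defective gene for the I-E alpha chain, so this beta chain is known to have no normal partner in the strain.

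**Figure D1:**
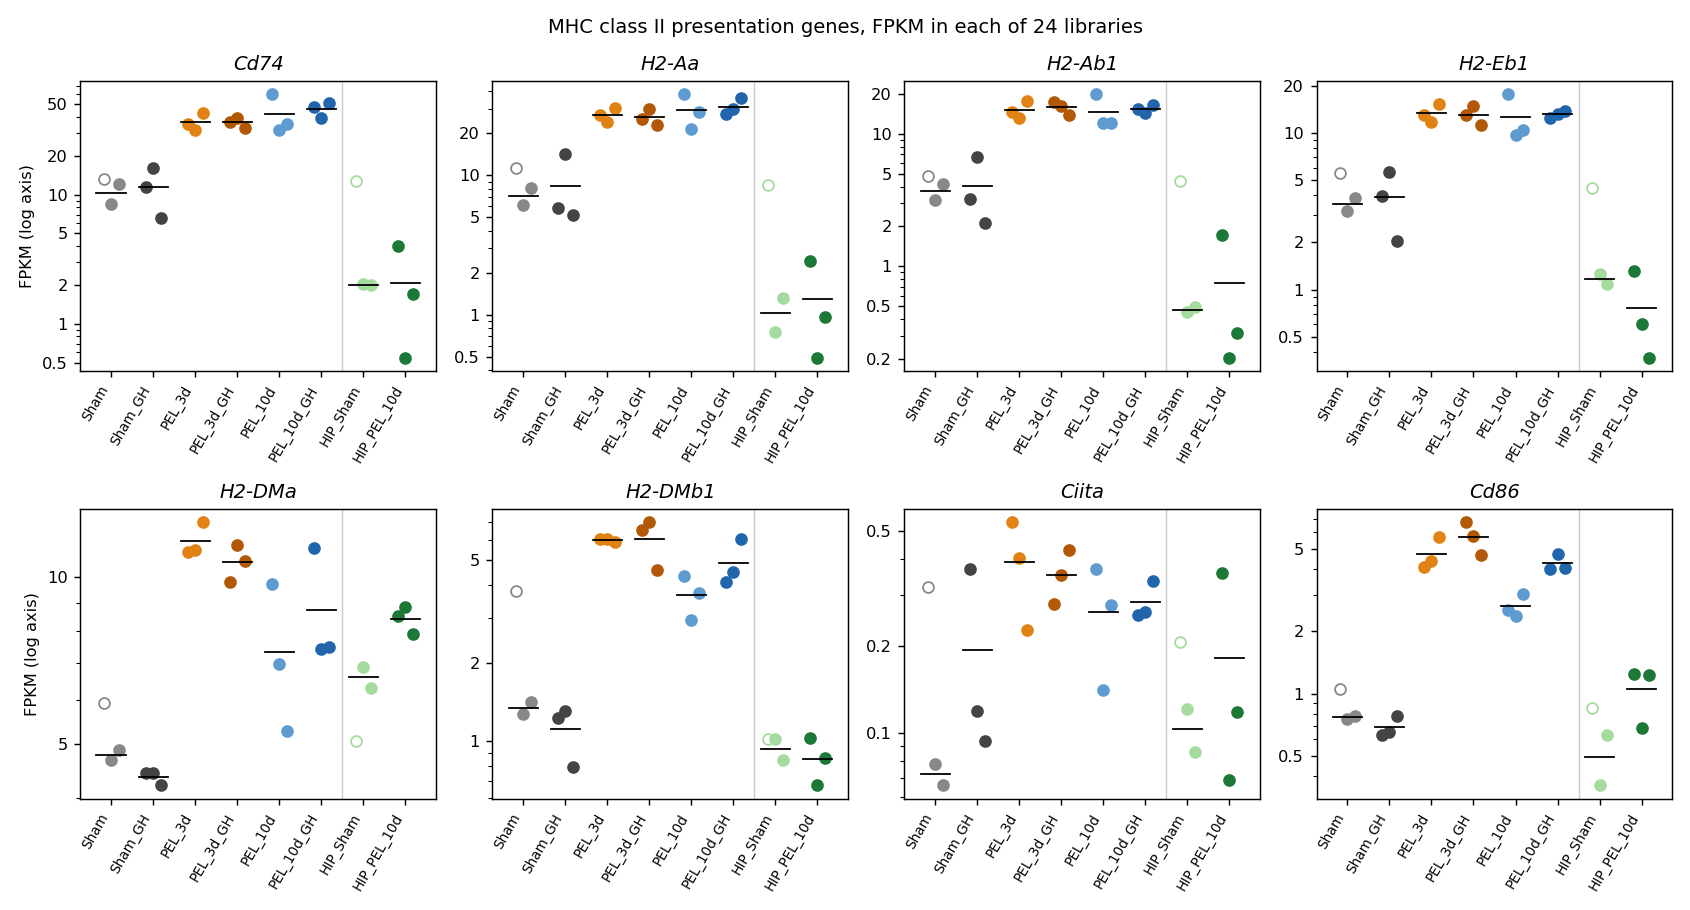
FPKM (log axis, with its own range in each panel) of the 8 members in the 24 libraries, by group; points are libraries, bars are group means without the open points, and the open points are Sham 1 and HIP_Sham 1, whose tissue markers went against their labels. Cd74 and the 3 chains overlap between day 3 and day 10, with 31.6 to 42.8 FPKM of Cd74 in PEL_3d and 31.4 to 59.98 FPKM in PEL_10d, whereas Cd86 steps down from at least 4.08 FPKM in PEL_3d to at most 3.02 FPKM in PEL_10d.

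At day 3, all 8 members were higher than in Sham in a quasi-likelihood test by edgeR, with p-values adjusted by Benjamini-Hochberg over all tested genes, where 22.2% of 14905 genes were called higher. Their FPKM did not overlap with the Sham libraries tested, as for 32.3% of genes. The median log2 fold change of the members was 1.97, against -0.01 over all tested genes. Cd74 was higher by 1.81 ± 0.17 on the log2 scale (SE; edgeR adjusted p = 1.5e-05). For the chains the log2 fold change was 1.90 for H2-Aa, 2.04 for H2-Ab1 and 1.795 for H2-Eb1. In bulk tissue, more cells of a type and more RNA per cell cannot be told apart, here or in any later comparison. With all 3 Sham libraries, H2-DMb1 (log2 fold change 1.41, edgeR adjusted p = 0.11) and Ciita (1.92, edgeR adjusted p = 0.090) no longer passed.

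The largest log2 fold changes at day 3 were those of Ciita and Cd86. Ciita, counted at 4 and 6 in Sham 2 and 3, had 48, 33 and 22 counts in PEL_3d, a log2 fold change of 2.67 ± 0.51 (SE; edgeR adjusted p = 0.0021). Its level stayed low throughout, from 0.066 to 0.539 FPKM over all libraries, so few reads stand behind it. The deposited FPKM of Ciita was not a fixed multiple of its count: divided by the CPM it ran from 0.167 to 0.825 between libraries, against 0.394 in every library for Cd86, and 7 counts in Sham_GH 1 gave the same 0.369 FPKM as 29 counts in PEL_10d 1. For H2-Eb1 the same multiple ran from 0.599 to 0.915. Cd86 went from 0.757 and 0.783 FPKM in Sham 2 and 3 to 4.08, 4.37 and 5.68 FPKM, a log2 fold change of 2.59 ± 0.23 (SE; edgeR adjusted p = 1.2e-05). H2-DMa, the alpha chain of the peptide exchanger, rose least, from 4.68 and 4.88 FPKM to 11.1, 11.2 and 12.6 FPKM, a log2 fold change of 1.12 ± 0.15 (SE; edgeR adjusted p = 0.00027). H2-DMb1, its beta chain, rose by 2.13 on the same scale, from 1.27 and 1.42 FPKM to between 5.89 and 6.04 FPKM.

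At day 10, 6 of the 8 members were called higher than in Sham, where 7.97% of 14801 tested genes were. Cd74 (log2 fold change 2.01), H2-Aa (2.02), H2-Ab1 (1.97) and H2-Eb1 (1.797) were followed by Cd86 (1.75) and H2-DMb1 (1.42). H2-DMa, at 9.71, 6.98 and 5.27 FPKM, had a log2 fold change of 0.50 (95% interval -0.06 to 1.07, edgeR adjusted p = 0.25). Ciita, with 29, 14 and 23 counts, had 2.04 (95% interval 0.80 to 3.28, edgeR adjusted p = 0.0503). All 8 members kept PEL_10d above the 2 Sham libraries without overlap, as 23.6% of tested genes did. This call rests on few Sham libraries: with all 3, 3 members (Cd74, H2-Ab1 and Cd86) and 269 genes in all passed, in place of 1392 genes, and H2-DMb1 had 0.70 (edgeR adjusted p = 0.69). Without Sham 2, which leaves a lone Sham library assumed to vary like the others, 1 member (H2-Aa) and 205 genes passed.

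Under GH the lesion comparisons gave 8 of 8 members higher at both times, against Sham_GH, where 26.9% of 14743 tested genes were called higher at day 3 and 17.7% of 14686 at day 10. Ciita overlapped in FPKM with Sham_GH at both times through Sham_GH 1, but not in counts, at 7, 12 and 3 in Sham_GH, 24, 31 and 37 in PEL_3d_GH and 23, 22 and 26 in PEL_10d_GH. At day 10 with GH the log2 fold change was 2.002 for Cd74, 1.85 for H2-Aa, 1.92 for H2-Ab1 and 1.60 for H2-Eb1. Cd86 had the largest value at both times, 3.03 at day 3 and 2.60 at day 10. H2-DMa had the smallest, 1.13 at day 3 and 0.85 at day 10, and passed at both. These comparisons share no library with those made without GH.

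Between day 3 and day 10 without GH, 2 of 8 members were lower and none was higher, where 12.2% of 14807 tested genes were called lower and 6.33% higher. Cd86 fell to 2.54, 2.36 and 3.02 FPKM, below all PEL_3d libraries, as H2-DMb1 and H2-DMa were too, among 19.9% of genes lower without overlap. This was a log2 fold change of -0.83 ± 0.17 (SE; edgeR adjusted p = 0.011). It passed in all 12 alternatives of this comparison. H2-DMb1 fell to 4.33, 2.94 and 3.74 FPKM, a log2 fold change of -0.70 ± 0.17 (SE; edgeR adjusted p = 0.020), but it missed the threshold without PEL_10d 2, PEL_3d 1 or PEL_3d 3, with edgeR adjusted p-values of 0.0755, 0.0630 and 0.0648 and log2 fold changes of -0.57, -0.70 and -0.71. H2-DMa had -0.61 (95% interval -1.06 to -0.17, edgeR adjusted p = 0.061) and passed with DESeq2, where adjusted p was 0.031.

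The presenting molecules themselves were not distinguishable between the time points. The log2 difference, day 10 less day 3, was 0.21 for Cd74 (95% interval -0.28 to 0.70), 0.12 for H2-Aa (-0.28 to 0.52), -0.05 for H2-Ab1 (-0.50 to 0.39) and 0.01 for H2-Eb1 (-0.45 to 0.47). PEL_10d 1 was the highest library for all 4. Without it, the Cd74 difference was -0.12 and that of H2-Aa -0.10. Ciita had -0.62 (-1.46 to 0.23).

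With GH, no member passed the test between the 2 days, where 10.8% of 14838 tested genes were called lower and 4.81% higher, and 2 members had an unadjusted p under 0.05 in edgeR. These were Cd74, with a log2 difference of 0.34 (95% interval 0.09 to 0.60, edgeR adjusted p = 0.068), and Cd86, with -0.43 (-0.78 to -0.08, edgeR adjusted p = 0.088). DESeq2 called 1 member, Cd74 higher, among 2910 genes, and the fit over all hypothalamic groups called 1, Cd86 lower, among 4121 genes, where 2315 were called here. The difference between the day effects with and without GH was tested directly as an interaction. None of the 8 members passed in it, and of 15091 genes 0% were called, with 440 genes and 0 members at an unadjusted p under 0.05 in edgeR, while DESeq2 called 0 genes. The interaction value was 0.41 for Cd86 (95% interval -0.11 to 0.93) and 0.40 for H2-DMb1 (-0.20 to 1.01).

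**Figure D2:**
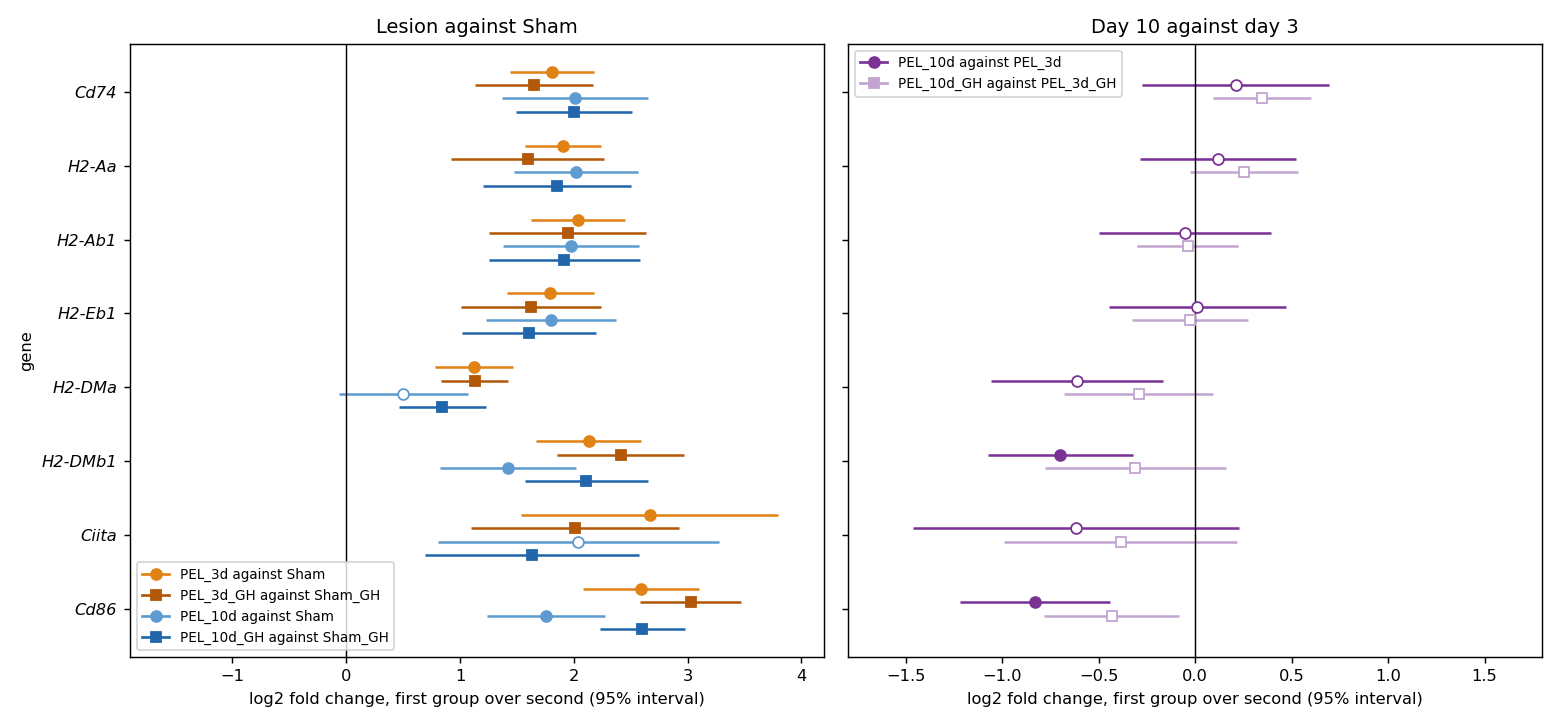
Log2 fold change of each member with its 95% interval, against Sham at left (4 comparisons) and day 10 against day 3 at right (2 comparisons); filled symbols passed an adjusted p of 0.05. At left every value is above 0, and H2-DMa and Ciita in PEL_10d are the open symbols; at right the chains lie around 0 and only H2-DMb1 (-0.70) and Cd86 (-0.83) without GH are filled.

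GH itself, compared within each surgery and day, moved none of the members past the threshold. In PEL_3d, 0.027% of 14798 tested genes were called and no member had an unadjusted p under 0.05, while DESeq2 called 0 members. In PEL_10d, edgeR called 0% of 14763 genes, with 906 at an unadjusted p under 0.05, and DESeq2 called 39 genes, with 0 members among them. Cd86 was the 1 member with an unadjusted p under 0.05 there: its 3.99, 4.73 and 4.06 FPKM in PEL_10d_GH all lay above the 3 PEL_10d libraries, as 5.28% of genes did in the higher direction, a log2 difference of 0.69 (95% interval 0.36 to 1.03, edgeR adjusted p = 0.48). Of the 8 microglial markers, 5 were higher without overlap and 0 called in the same comparison, with sums of 398 to 493 FPKM against 315 to 348 FPKM. Neutrophil marker sums lay apart too, at 9.82 to 27.4 FPKM in PEL_10d_GH against 2.18 to 7.41 FPKM in PEL_10d. The sums of border macrophage, monocyte, dendritic cell, T cell and B cell markers overlapped. The part of these cells in the Cd86 difference was not tested. In Sham, 1.09% of 14539 genes and none of the 7 tested members were called, and none of these had an unadjusted p under 0.05 or was called by DESeq2. Sham_GH libraries varied widely among themselves, from 2.14 to 6.71 FPKM for H2-Ab1.

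In the hippocampus the chains were low. Cd74 was at 2.01 and 1.99 FPKM in HIP_Sham 2 and 3, at 12.7 FPKM in HIP_Sham 1, and at 3.997, 0.545 and 1.71 FPKM in HIP_PEL_10d. H2-Ab1 and Ciita fell under the count filter. Of the 6 tested members none passed by edgeR, and 0% of 14039 genes did, with 1434 genes and 1 member, H2-DMa, at an unadjusted p under 0.05. DESeq2 called 231 genes and 0 members. Without HIP_Sham 1, edgeR called 873 genes and 0 members. The log2 difference for Cd74 was -1.28 with HIP_Sham 1 and 0.055 without it, and that for H2-Aa was -1.31 and 0.28.

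H2-DMa was not low in the hippocampus. Its level was 6.88 and 6.31 FPKM in HIP_Sham 2 and 3, 5.06 FPKM in HIP_Sham 1 and 7.89 to 8.86 FPKM in HIP_PEL_10d, without overlap, as 8.66% of genes were in the higher direction, and 4.68 and 4.88 FPKM in the hypothalamic Sham 2 and 3, with 5.92 FPKM in Sham 1. Leaving out the 2 libraries that went against their labels, HIP_Sham lay above Sham. The log2 difference in the hippocampus was 0.50 (95% interval 0.04 to 0.96, edgeR adjusted p = 0.48), and without HIP_Sham 1 it was 0.33 (edgeR adjusted p = 0.15). H2-DMa overlaps Brd2 on the opposite strand over 3094 bases in the annotation, and whether counting used strand is not stated. Brd2 had mean levels between 59.5 and 69.1 FPKM in all 8 groups, so the share of H2-DMa reads from it cannot be told apart. Ciita overlaps Dexi in the same way.

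The difference between the day 10 lesion effects of hypothalamus and hippocampus was tested as an interaction, where 1.88% of 15093 genes were called. No member passed in edgeR, 2 were called by DESeq2, and 6 had an unadjusted p under 0.05 in edgeR. H2-DMb1 had a log2 difference of 1.56 (95% interval 0.78 to 2.33, edgeR adjusted p = 0.055) and H2-Eb1 had 3.30 (1.35 to 5.24, edgeR adjusted p = 0.098). Without HIP_Sham 1 both passed, with edgeR adjusted p-values of 0.034 for H2-DMb1 and 0.026 for H2-Eb1, and H2-Eb1 then had 2.35, in a fit that called 1616 genes in place of 284. DESeq2, with its 2 members, called 821 genes. Over all alternatives H2-DMb1 ran from 0.82 to 1.69 and passed in 2 of 16, and H2-Eb1 ran from 2.35 to 3.98 and passed in 3 of 17. With all 3 Sham libraries 94 genes were called.

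In the order of group means, Cd74, H2-Aa, H2-Ab1 and H2-Eb1 each had the 4 lesioned hypothalamic groups on top, with ranges overlapping between neighbours. A gap without overlap followed, and then came Sham_GH and Sham, which overlapped, and the hippocampal groups. HIP_Sham overlapped with Sham only through HIP_Sham 1. Without it, HIP_Sham lay below Sham 2 and 3 for all 4 genes, with at most 2.01 FPKM of Cd74, 1.32 FPKM of H2-Aa, 0.490 FPKM of H2-Ab1 and 1.25 FPKM of H2-Eb1. Cd86 was ordered differently: PEL_10d_GH at 4.26 ± 0.41 FPKM (SD, n = 3) and PEL_10d at 2.64 ± 0.34 FPKM (SD, n = 3) did not overlap.

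The other genes of the pathway were read from a list of 34, grouped by role. At day 3, 16 of the 31 tested were higher than in Sham and 1 lower, beside 22.2% of all tested genes called higher and 18.2% lower. At day 10, 13 of 30 were higher and 0 lower, beside 7.97% and 1.43%. With all 3 Sham libraries, 12 of 30 were higher and 0 lower at day 3, and 5 of 29 higher and 0 lower at day 10. With GH the counts were 19 higher and 3 lower of 31 at day 3 and 19 higher and 1 lower of 32 at day 10, where 26.9% and 17.7% of all tested genes were called higher and 25.2% and 13.3% lower. Between day 3 and day 10, 8 of 31 were lower and 0 higher without GH, and 9 of 31 lower and 0 higher with GH. Over all tested genes 12.2% were lower and 6.33% higher without GH, and 10.8% lower and 4.81% higher with GH. The median log2 difference between days was -0.12 over the list, against 0.01 over all tested genes.

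Endosomal enzymes cut the invariant chain and the antigen, or reduce its disulfide bonds. All 6 were higher than in Sham at both times, and 5 of 6 were lower at day 10 than at day 3, where 22.2% and 7.97% of all tested genes were called higher than in Sham and 12.2% lower between the days. With all 3 Sham libraries the 6 passed at day 3, and Ctss, Ctsb and Lgmn passed at day 10. Ifi30, a thiol reductase that opens disulfide bonds of antigens, went from 4.19 and 5.24 FPKM in Sham 2 and 3 to 60.5, 55.9 and 72.9 FPKM in PEL_3d and back to 15.9, 9.30 and 12.99 FPKM in PEL_10d. Its log2 fold change between days was -2.31, followed by the legumain gene Lgmn (-1.38), Ctsd (-1.34), Ctsb (-1.01) and Ctsl (-0.96). Ctss, the protease of the last step of invariant chain cleavage, was at 291, 303 and 371 FPKM in PEL_3d and 283, 211 and 338 FPKM in PEL_10d, a log2 difference of -0.21 (edgeR adjusted p = 0.39). The levels of Ctss thus overlapped between days, as those of Cd74 did.

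Of 11 transcription factors, 5 were higher and 1 lower at day 3, beside the same 22.2% and 18.2% of all genes. Spi1 (log2 fold change 3.65) and Irf8 (3.41), factors of the myeloid lineage, had the largest values, and Irf1 (0.999) and Nfya (0.81) were also higher. Spi1 (-1.18), Irf8 (-0.92) and Nfya (-0.44) fell again by day 10, while Irf1 (-0.23), which acts downstream of interferon gamma, did not pass. The regulatory factor X subunits, which hold Ciita at class II promoters, were near 0 at day 3 for Rfx5 (-0.17) and Rfxank (0.18), and Rfxap was lower (-0.38). With all 3 Sham libraries Nfya (0.62, edgeR adjusted p = 0.073) and Rfxap (-0.31, edgeR adjusted p = 0.22) did not pass. Of the interferon gamma receptor genes, Ifngr1 had 0.71 and Ifngr2 0.49 at day 3, and with all 3 Sham libraries Ifngr1 passed and Ifngr2 did not (0.32, edgeR adjusted p = 0.25). Ifng itself was counted at 0 in all 3 PEL_3d libraries and at 2, 3 and 4 in PEL_10d, and was not tested.

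Among the other class II chains, H2-Oa and H2-Ob, which form the inhibitor of H2-DM, were higher at day 3 by 2.16 and 2.28 on the log2 scale. At day 10 H2-Ob had 2.31 and passed, and H2-Oa had 1.71 (edgeR adjusted p = 0.14). With all 3 Sham libraries H2-Oa passed at day 3 and H2-Ob at neither time, with 1.39 at day 3 (edgeR adjusted p = 0.19) and 1.42 at day 10 (edgeR adjusted p = 0.45). H2-DMb2, a near copy of H2-DMb1, had 0.84 at day 3 (edgeR adjusted p = 0.20), and counts of the copies may be split between them, since some deposited H2-DMb1 counts are not whole. Of 5 tested co-stimulation genes none passed at day 3 and 1, Icosl, passed at day 10 (0.76), though not with all 3 Sham libraries (0.54, edgeR adjusted p = 0.48). Cd80, the second ligand of the receptors of Cd86, had 1.05 at day 3 (edgeR adjusted p = 0.063).

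**Figure D3:**
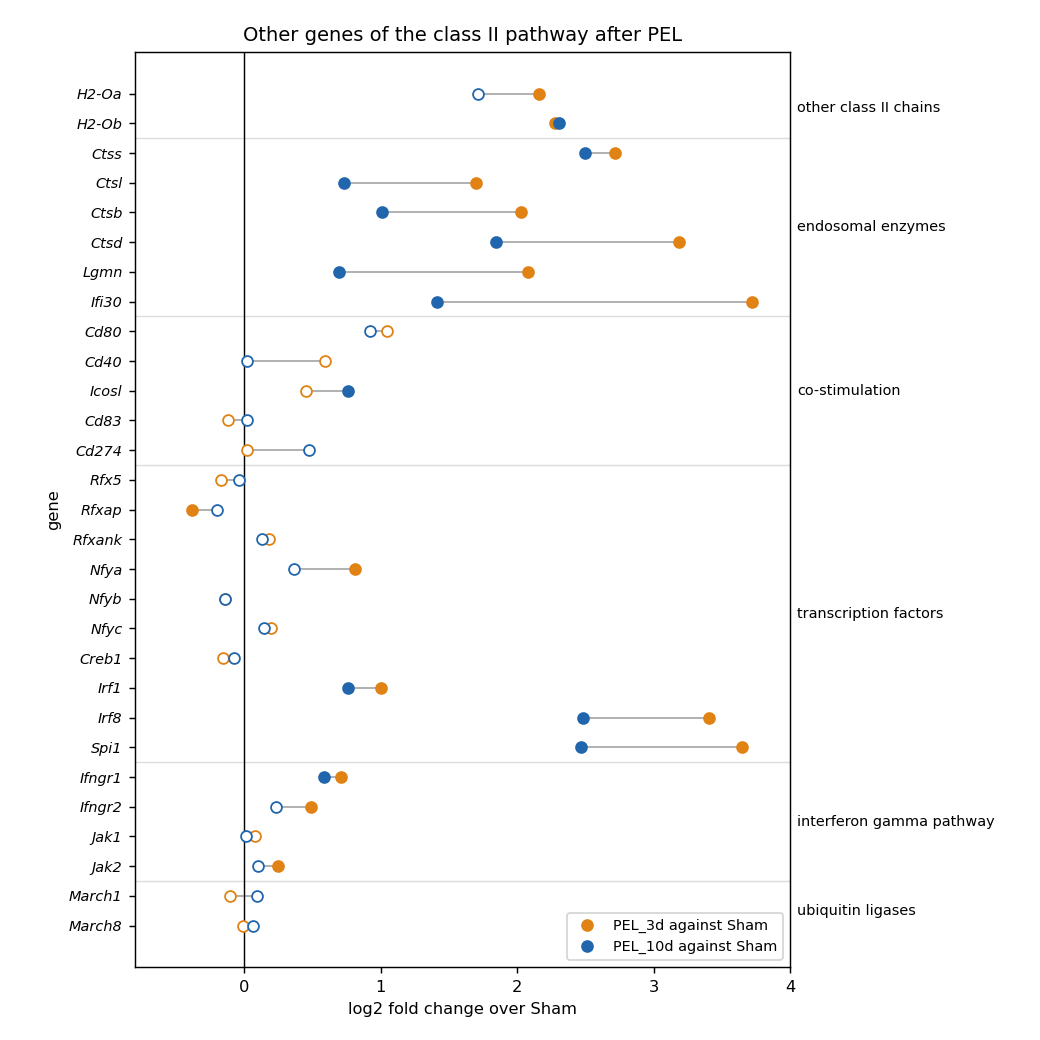
Log2 fold change over Sham of 29 pathway genes tested at both times, by role, at day 3 (orange) and day 10 (blue); filled points passed an adjusted p of 0.05, and grey lines join the 2 times of a gene. Ifi30, Lgmn, Ctsd, Ctsb and Ctsl shift to the left by day 10, and Ctss and H2-Ob stay near their day 3 values.

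Markers of cells that could carry these genes moved too, and their part in the results was not tested. All 8 microglial markers were higher at day 3 than in Sham and all 8 fell by day 10. Their summed level was 143 to 158 FPKM in Sham, 731 to 773 FPKM in PEL_3d and 315 to 348 FPKM in PEL_10d. With GH, all 8 were higher in PEL_3d_GH than in Sham_GH, beside 26.9% of all tested genes. From PEL_3d_GH to PEL_10d_GH 7 of 8 were lower, beside 10.8% of genes. These sums were 113 to 133 FPKM in Sham_GH, 682 to 941 FPKM in PEL_3d_GH and 398 to 493 FPKM in PEL_10d_GH. Border macrophage markers, 5 of 6 higher at day 3 than in Sham (4 of 6 with all 3 Sham libraries) and 4 of 6 lower at day 10 than at day 3, summed to 30.6 to 61.9 FPKM in PEL_3d and 4.33 to 8.87 FPKM in PEL_10d. With GH, 6 of 6 were higher in PEL_3d_GH than in Sham_GH and 3 of 6 lower in PEL_10d_GH than in PEL_3d_GH. Monocyte markers summed to 6.97 to 23.6 FPKM in Sham, 62.0 to 119 FPKM in PEL_3d and 41.0 to 55.4 FPKM in PEL_10d. All 4 were higher than in Sham at both times, and 2 of 4 were lower at day 10 than at day 3. With all 3 Sham libraries, 3 of 3 tested passed at day 3 and 1 of 3 at day 10. With GH, 3 of 3 tested were higher at day 3 than in Sham_GH, and 0 of 4 were lower between the days. Of all tested genes, 22.2% were higher than in Sham at day 3 and 7.97% at day 10, and 12.2% were lower between the days.

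Dendritic cell markers summed to 2.99 to 4.90 FPKM in Sham, 7.02 to 10.7 FPKM in PEL_3d and 9.41 to 12.5 FPKM in PEL_10d. Of 3 tested, 1 was higher than in Sham at each time, Itgax (log2 fold change 4.74 at day 3), a gene that other myeloid cells can also express, while Flt3 had -0.14 and Zbtb46 0.06 at day 3 and did not pass at either time, and none passed between the days. T cell markers stood at 1.07 to 1.66 FPKM in PEL_3d and 2.04 to 2.42 FPKM in PEL_10d, against at most 0.198 FPKM in Sham, and Cd3d and Cd3g were at 0 in all Sham libraries. B cell markers, of cells rich in class II, summed to 0.783 to 1.39 FPKM in PEL_3d and 0.429 to 0.943 FPKM in PEL_10d, and to at most 1.503 FPKM in any library. Between the days with GH, 1 of 3 tested T cell markers (Cd28, log2 difference -1.89) and the 1 tested B cell marker (Cd79b, -2.01) were lower, and both were named after their values were seen. Of all tested genes, 22.2% at day 3 and 7.97% at day 10 were higher than in Sham, and 10.8% were lower between the days with GH.

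Markers of blood and of the tissue itself also moved with the groups, and their part was likewise not tested. Both tested neutrophil markers were higher in PEL_3d than in Sham (0 with all 3 Sham libraries), with sums of 5.17 to 13.3 FPKM against at most 4.19 FPKM. Red blood cell markers summed to 14.4 to 24.02 FPKM in PEL_3d, 22.8 to 114 FPKM in PEL_10d and 40.3 to 187 FPKM in PEL_10d_GH, with 1 of 3 higher at day 10 than at day 3 without GH and 3 of 3 higher in PEL_10d_GH than in Sham_GH. Of 8 hypothalamic markers, 6 were lower in PEL_3d than in Sham and 2 in PEL_10d, and 0 at either time with all 3 Sham libraries. Choroid plexus markers summed to 9.07 to 15.6 FPKM in PEL_3d and 20.6 to 25.8 FPKM in PEL_10d, with 3 of 6 higher at day 10 (1 of 6 with GH), and to 4329 and 5423 FPKM in HIP_Sham 2 and 3 and 38.5 to 797 FPKM in HIP_PEL_10d. Of all tested genes, 22.2% were higher and 18.2% lower in PEL_3d than in Sham, and 1.43% were lower in PEL_10d. At day 10 against day 3, 6.33% were higher without GH and 4.81% with GH, and 17.7% were higher in PEL_10d_GH than in Sham_GH.

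The class II sum of Cd74 and the 3 chains was set against the microglial sum in each library, as a description. The ratio was 0.136 and 0.197 in Sham 2 and 3, 0.106 to 0.137 in PEL_3d and 0.238 to 0.408 in PEL_10d. With GH it was 0.0984 to 0.118 in PEL_3d_GH and 0.197 to 0.296 in PEL_10d_GH, and the Sham_GH libraries, at 0.136 to 0.319, spanned the latter range. The day 3 and day 10 ranges did not overlap, with or without GH, while the class II sums did, at 80.5 to 106 FPKM in PEL_3d and 74.9 to 136 FPKM in PEL_10d. The microglial sums, the divisor, were themselves lower at day 10 without overlap. They were 731 to 773 and 315 to 348 FPKM without GH, and 682 to 941 and 398 to 493 FPKM with GH. Any level that stayed flat between the days would thus give a higher ratio at day 10.

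**Figure D4:**
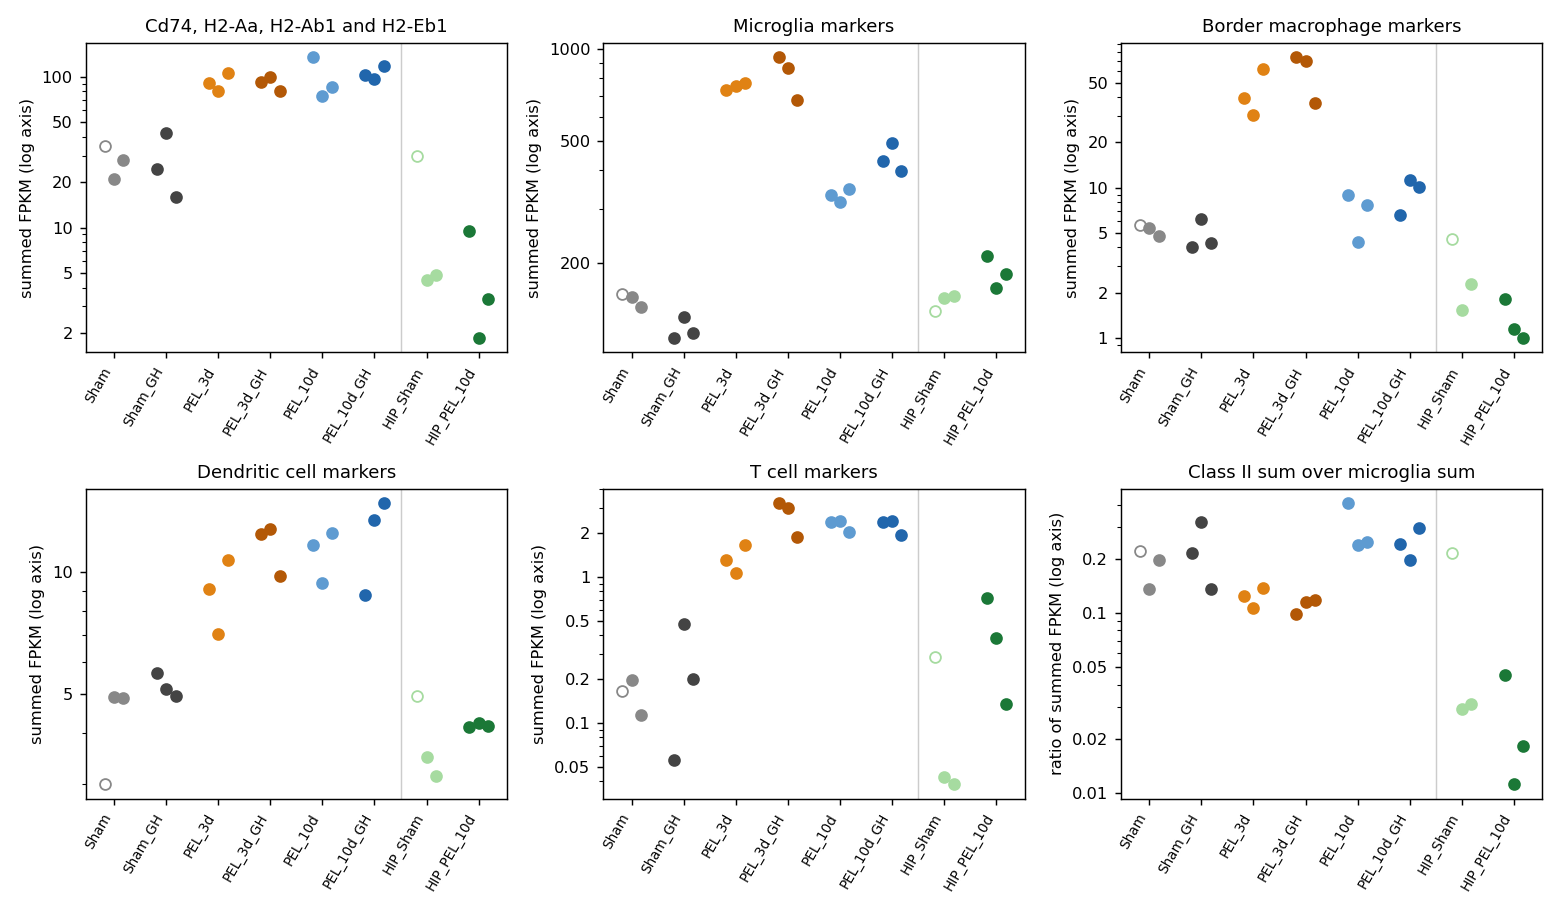
Summed FPKM of Cd74 with the 3 chains and of 4 marker lists in the 24 libraries, and the ratio of the class II sum to the microglial sum (log axes, each with its own range); open points are Sham 1 and HIP_Sham 1. From day 3 to day 10 the microglial sum drops from at least 731 to at most 348 FPKM without GH, the class II sums overlap, and the ratio rises from at most 0.137 to at least 0.238.

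Over the 17 hypothalamic libraries other than Sham 1, the genes whose pattern was most like the mean of Cd74 and the 3 chains were H2-K1 (Pearson r = 0.97), C4b (0.96), Clec4a2 (0.96), H2-D1 (0.96) and Cxcl16 (0.96), of 13395 genes with a mean of at least 1 FPKM. The libraries share the lesion groups, so these are descriptions of a common order. H2-K1 and H2-D1 are class I heavy chains, and H2-K1 had group means of 66.3 FPKM in PEL_3d and 65.5 FPKM in PEL_10d. Among the other members H2-DMb1 ranked 31, Cd86 250 and H2-DMa 795 of those genes.

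Class II promoters are known to carry an X box, bound by the regulatory factor X complex, and a Y box, bound by NF-Y, which together recruit Ciita. RefSeq promoter sequences (GRCm38.p6) were at hand for 4 of the 8 members. The letters searched, on both strands of the 250 bases before each start, were GATTGG for the Y core, held by 14.56% of 32851 promoters, GCAAC for the X1 core, held by 29.88%, and TGACG for the X2 site, held by 17.765%. GCAAC lying 25 to 50 bases before GATTGG on one strand, a window chosen after the sequences were seen, was found in 0.347% of all promoters. H2-Aa and H2-Eb1 hold the pair, at distances of 32 and 31 bases, as do H2-Oa, H2-Ob and H2-Eb2 of the pathway list. The 150 bases before the start are shown for H2-Aa (chr17:34287824-34287973, minus strand), H2-Eb1 (chr17:34305717-34305866, plus strand), H2-DMb1 (chr17:34153041-34153190, plus strand) and the first listed start of H2-DMa (chr17:34122682-34122831, plus strand), because H2-DMb1 was called lower at day 10 than at day 3 without GH, though not with GH, and the chains in neither, with motif letters of either strand in capitals.
H2-Aa: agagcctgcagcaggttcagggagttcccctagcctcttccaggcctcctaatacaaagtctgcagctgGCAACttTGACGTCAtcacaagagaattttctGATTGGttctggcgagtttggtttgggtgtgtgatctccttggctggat
H2-Eb1: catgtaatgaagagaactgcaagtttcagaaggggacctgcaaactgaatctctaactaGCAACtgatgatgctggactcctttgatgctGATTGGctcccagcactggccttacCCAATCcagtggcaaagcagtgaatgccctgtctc
H2-DMb1: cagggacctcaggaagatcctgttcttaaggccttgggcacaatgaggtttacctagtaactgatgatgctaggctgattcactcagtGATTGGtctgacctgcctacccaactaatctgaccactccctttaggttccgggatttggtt
H2-DMa: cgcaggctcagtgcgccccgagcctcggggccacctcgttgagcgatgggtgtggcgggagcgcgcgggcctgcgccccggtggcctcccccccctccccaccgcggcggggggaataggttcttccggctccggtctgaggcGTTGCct
By these exact letters H2-DMb1 has the Y core and no X1 core. Before its Y core it has gtaactgatgatgct where H2-Eb1 has GCAACtgatgatgct, and such near matches were not searched, so an X box is not shown to be absent. The H2-DMa start shown has an X1 core on the other strand and no Y core. The second H2-DMa start, not shown, has a Y core 199 bases before it and no X1 core. These starts, at 34122832 and 34125518, lie inside the annotated gene, which runs from 34119541 to 34139101. Which start of H2-DMa was used here was not tested, so these letters describe the listed starts and not the gene. These matches are letters in a window and say nothing of binding. Their relation to the differences between the days was not tested.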

How the data were processed

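mRNA libraries of 24 samples in 8 groups of 3 were analysed. The authors aligned reads with Hisat2 2.0.5 and counted them with featureCounts 1.5.0-p3; the submitters' processing notes name GRCm38 (mm10). The table deposited by the authors gives, per gene and sample, estimated counts and FPKM values, the latter scaled by them for length and depth. Of the estimated counts, 8.22% are not whole, and all were rounded for the tests. Of 22274 identifiers, 22219 were matched to a symbol. Groups were compared with edgeR 4.0.16 (R 4.3.3; quasi-likelihood test, TMM, filterByExpr with a minimum count of 10, Benjamini-Hochberg adjustment over all tested genes, threshold 0.05), each fit holding only the groups compared, without Sham 1; the code was tested on simulated data. Intervals are at 95%. DESeq2 1.42.0 and the other alternatives stand in the closing section. Likeness was the correlation of log2(FPKM + 0.1) with the mean z-score of Cd74, H2-Aa, H2-Ab1 and H2-Eb1. FPKM is a level per gene length and was not tested. Named were all members, and pathway genes called with the largest changes or by role. Single values of 2 genes of the lists are not reported here, though the list counts and sums include them. Members, gene lists and markers were chosen with earlier results of these data known. Levels and motifs were computed in Python 3.11.15 (pandas 2.3.3, numpy 2.4.6, matplotlib 3.10.9). Replicates of a group differed by 3.19 to 19.7 in chi-square of counts per degree of freedom, except pairs with Sham 1 or HIP_Sham 1 (156 to 160), so each was counted as a separate sample.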

Additional observations from a re-analysis of the deposited data

How the results depend on the processing

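Each comparison was also run with DESeq2, with edgeR using the size factors of DESeq2, without the low-count filter, with genes kept from a mean count of 50, with the replicate block, in 1 fit over all hypothalamic groups, with all 3 Sham libraries, and without each library in turn. None of the alternatives turned the direction of a member past the threshold: 73 of 1175 alternative values, for 30 of 93 member differences, changed sign, and 0 of these passed the threshold in either fit. The cause was not tested for any change below. The count of members called moved by over 1.5 times for day 10 against day 3 (2; 1 to 3 with a library left out), day 10 against day 3 with GH (0; 1 by DESeq2, 1 in the fit over all hypothalamic groups, 0 to 1 with a library left out), PEL_10d against Sham (6; 3 with all 3 Sham libraries, 1 to 7 with a library left out) and the lesion by tissue interaction (0; 2 by DESeq2, 1 with the replicate block, 0 to 2 with a library left out), and it was 6 in place of 8 for PEL_3d against Sham with all 3 Sham libraries. Pathway genes called, an alternative chosen after seeing the data, went with all 3 Sham libraries from 17 to 12 for PEL_3d, from 13 to 5 for PEL_10d and from 7 to 3 for the tissue interaction. Replicate numbers did not pair samples: same-numbered samples correlated at -0.36 to 0.32 over 27 pairs, with 6 over 0.1. The block left 3 members called for day 10 against day 3, H2-DMa among them, and took genes called from 2315 to 1109 with GH, from 159 to 317 for GH in Sham and from 284 to 157 for the tissue interaction. All 3 Sham libraries took genes called from 6035 to 1683 for PEL_3d against Sham, from 1392 to 269 for PEL_10d against Sham, from 159 to 0 for GH in Sham and from 284 to 94 for the tissue interaction, which had 1616 without HIP_Sham 1, 0 without Sham 2 or Sham 3 and 821 by DESeq2. DESeq2 called 266 genes for GH in Sham, and 59 for GH at day 3 where edgeR called 4. For GH, the fit over all hypothalamic groups called 9 genes at day 3, 2 at day 10 and 13 in Sham, the fit without the low-count filter 8 at day 3 and 359 in Sham, and the block 1 at day 3. That joint fit called 4121 genes for day 10 against day 3 with GH, which ran from 704 to 4435 with a library left out. Where leaving out a library moved the genes called by over 1.5 times, they came to 1333 to 1629 for day 10 against day 3 (2742), 3394 to 3887 for PEL_3d against Sham, 205 to 304 for PEL_10d against Sham, 1 to 56 for GH at day 3 and 44 to 52 for GH in Sham. In the hippocampus DESeq2 called 231 genes, and edgeR 873 without HIP_Sham 1, where it called 0 with it.

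Sign changes by setting were as follows. H2-Eb1, day 10 against day 3, was -0.0091 with genes kept from a mean count of 50 and -0.010 with the replicate block. GH in Sham, with all 3 Sham libraries, gave -0.0066 for Cd74, -0.039 for H2-Aa, -0.032 for H2-Ab1 and -0.014 for H2-Eb1. H2-DMa in the tissue interaction was -0.041 with DESeq2's size factors, -0.042 with DESeq2, -0.014 without a filter, -0.033 with the replicate block and -0.13 with all 3 Sham libraries. With a library left out, day 10 against day 3 ran from -0.12 to 0.38 for Cd74, -0.10 to 0.30 for H2-Aa, -0.32 to 0.078 for H2-Ab1 and -0.27 to 0.15 for H2-Eb1, and with GH from -0.12 to 0.039 for H2-Ab1 and -0.13 to 0.10 for H2-Eb1. The day by GH interaction ran from -0.029 to 0.47 for Cd74, -0.038 to 0.36 for H2-Aa, -0.11 to 0.29 for H2-Ab1, -0.17 to 0.25 for H2-Eb1 and -0.059 to 0.48 for Ciita. GH at day 3 ran from -0.085 to 0.14 for Cd74, -0.14 to 0.050 for H2-Aa, -0.018 to 0.20 for H2-Ab1, -0.062 to 0.19 for H2-Eb1, -0.082 to 0.20 for H2-DMb1 and -0.42 to 0.10 for Ciita. GH at day 10 ran from -0.031 to 0.48 for Cd74, -0.091 to 0.32 for H2-Aa, -0.035 to 0.36 for H2-Ab1, -0.14 to 0.30 for H2-Eb1 and -0.22 to 0.29 for Ciita. GH in Sham ran from -0.17 to 0.44 for Cd74, -0.34 to 0.51 for H2-Aa, -0.45 to 0.46 for H2-Ab1 and -0.21 to 0.51 for H2-Eb1. The hippocampal lesion ran from -2.14 to 0.055 for Cd74, -2.13 to 0.28 for H2-Aa and -0.28 to 0.0017 for H2-DMb1, and H2-DMa in the tissue interaction from -0.28 to 0.16. Depth limits Ciita most, with at most 48 counts in any library.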
